A study of Mus musculus with 2 samples.

Results

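The genes described here are 9 genes associated with follicular (B2) B cells, *Fcer2a*, *Cr2*, *Vpreb3*, *Fcrl1*, *Ebf1*, *Pax5*, *Ms4a1*, *Cd72* and *Zfp318*. They were given as a list of symbols and are 9 of the 19960 genes in the files. The question was which of them were kept in the B2 cells that remained after *Postn*-expressing stromal cells had been targeted. The data are droplet-based single-cell RNA sequencing of mouse omentum, an abdominal fat tissue with small lymphoid aggregates (milky spots), and transcripts were counted by unique molecular identifiers (UMIs). There was 1 library from mice labelled WT and 1 from mice labelled *Postn*-DTR. Both groups had received diphtheria toxin (DT), and cells were taken after 5 days. In *Postn*-DTR mice the receptor for DT is made under control of the *Postn* locus, so any cell that uses the *Postn* promoter can be killed, whereas WT mice lack the receptor. Mice were pooled within a group, no sort before capture is stated, and no age is given in the labels. With 1 library per group the differences have no replicate check, and no test between groups was made.

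B cells are made in bone marrow under *Ebf1* and *Pax5*, which switch on genes of the B cell receptor and hold the lineage in place. Mature B cells are commonly divided into recirculating follicular B2 cells, which carry CD23 and CD21 on their surface, and B1 cells of the body cavities, which are low in both. On becoming plasma cells, B cells lose most of the surface receptors and transcription factors of the mature stage.

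The WT library held 8654 cells and 80152020 UMIs, and the *Postn*-DTR library held 5727 cells and 81011358 UMIs. Cells were grouped without using the 9 genes, and groups were called B2 B-like, B1 B-like, cycling B-like and plasma-like from other marker genes. The B2 B-like group met 7 of 7 general B cell markers, 4 of 7 B2 markers and 0 of 9 B1 markers, whereas the B1 B-like group met 9 of 9 B1 markers and 0 of 7 B2 markers. B2 B-like cells made up 18.2% of the WT cells (1577 cells, exact Clopper-Pearson 95% interval 17.4 to 19.1) and 7.84% of the *Postn*-DTR cells (449 cells, 7.16 to 8.57). The corresponding numbers of cells were 1054 and 476 for B1 B-like, 112 and 18 for cycling B-like, and 559 and 1996 for plasma-like cells. Intervals here and below cover counting error only. *Postn*, the targeted gene, gave UMIs in 9 of 42 WT stromal cells (50 UMIs) and in 4 of 19 *Postn*-DTR ones (9 UMIs), and in 3 and 0 B2 B-like cells. The study used heterozygous *Postn*-DTR mice, with the receptor inserted in a coding exon of *Postn*. These *Postn* numbers therefore do not measure how many cells were killed. The median B2 B-like cell held 4468 UMIs in WT and 3269 in *Postn*-DTR, so shares of cells with a UMI were compared after each cell had been thinned to 1000 UMIs.

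A level is the mean over cells of a gene's UMIs per 10000 UMIs of the cell. A gene was called lower or higher when its ratio between libraries was past 1.5-fold, with 0.02 UMIs per 10000 added to both levels, and the interval beside a log2 ratio is the exact conditional 95% interval of the summed UMIs. In B2 B-like cells 4 of the 9 genes (*Fcer2a*, *Cr2*, *Ms4a1* and *Cd72*) were lower in *Postn*-DTR, 5 were within 1.5-fold and 0 were higher. Of the 7447 genes with at least 100 UMIs, 6.15% were lower, 89.1% were within and 4.78% were higher. The median log2 ratio was -0.49 over the 9 genes and -0.0047 over all genes. Because these are means per cell in 1 library each, fewer transcripts per cell and a different mix of B2 cells cannot be told apart.

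The genes of CD23 and CD21, the 2 surface receptors named above for follicular B2 cells, had the lowest ratios of the 9 genes. *Fcer2a* (ENSMUSG00000005540, chromosome 8, 3681737 to 3694175, minus strand, GRCm38) encodes CD23, the low-affinity IgE receptor. Its level in B2 B-like cells was 4.69 UMIs per 10000 in WT, from 3462 UMIs, against 2.19 in *Postn*-DTR, from 342 UMIs, for a log2 ratio of -1.09 (-1.25 to -0.926). After thinning, a *Fcer2a* UMI was found in 33.3% of the WT cells (31.0 to 35.7) and in 19.4% of the *Postn*-DTR cells (15.8 to 23.4). The intervals of the shares did not overlap. These intervals treat the cells of each pooled library as independent draws. Here and below, their overlap or lack of it describes counting error only and is no test between groups. *Cr2* (ENSMUSG00000026616, chromosome 1, 195136811 to 195176716, minus strand) encodes CD21, a receptor for complement fragments that acts beside the B cell receptor. Its level was 2.53 in WT, from 2014 UMIs, against 1.19 in *Postn*-DTR, from 211 UMIs, for a log2 ratio of -1.07 (-1.21 to -0.796). The share of thinned cells with a *Cr2* UMI was 21.8% in WT (19.8 to 23.9) against 8.78% in *Postn*-DTR (6.32 to 11.8), again without overlap. In T-like cells, which should lack both genes, the thinned share was 0.379% for *Fcer2a* and 0.158% for *Cr2* in WT and 0 for both in *Postn*-DTR, where the limit for a count of 0, taken as 3 of the 506 cells, was 0.593%.

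*Ms4a1* and *Cd72* encode membrane proteins that modulate signals of the B cell receptor. *Ms4a1* (ENSMUSG00000024673, chromosome 19, 11249675 to 11266241, minus strand) encodes CD20 and had the highest level of the 9 genes in B2 B-like cells of both libraries, although levels of different genes are not corrected for length or capture. Its level was 12.1 UMIs per 10000 in WT against 7.64 in *Postn*-DTR, for a log2 ratio of -0.67 (-0.755 to -0.584), and the thinned share of cells fell from 69.2% (66.8 to 71.5) to 49.8% (45.0 to 54.5). *Cd72* (ENSMUSG00000028459, chromosome 4, 43446462 to 43454628, minus strand) encodes an inhibitory co-receptor. Its level was 2.90 in WT and 1.84 in *Postn*-DTR, for a log2 ratio of -0.65 (-0.848 to -0.492), and its thinned share was 23.8% (21.7 to 26.0) in WT against 16.2% (12.9 to 19.98) in *Postn*-DTR. Both ratios lay close to the 1.5-fold limit, and neither gene was past it when the cells' subclusters were weighted as in WT (-0.51 for *Ms4a1* and -0.44 for *Cd72*).

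The pair of transcription factors was within 1.5-fold. *Ebf1* (ENSMUSG00000057098, chromosome 11, 44617317 to 45008091, plus strand), which specifies the B lineage, had a level of 6.24 UMIs per 10000 in WT B2 B-like cells against 4.70 in *Postn*-DTR, for a log2 ratio of -0.41 (-0.533 to -0.303). *Pax5* (ENSMUSG00000014030, chromosome 4, 44524757 to 44710487, minus strand), which maintains B cell identity and represses genes of other lineages, had a level of 2.73 in WT and 1.94 in *Postn*-DTR, for a log2 ratio of -0.49 (-0.611 to -0.265). Both genes had lower values in *Postn*-DTR, with counting intervals that did not reach 0. After thinning to 1000 UMIs, the intervals of the shares of cells with a UMI overlapped for *Ebf1* (44.2%, 41.7 to 46.7, against 38.3%, 33.7 to 43.0) and for *Pax5* (21.6%, 19.6 to 23.7, against 16.7%, 13.3 to 20.5). After thinning to 2000 UMIs they did not, with *Ebf1* in 67.9% (65.5 to 70.2) against 59.7% (54.8 to 64.4) and *Pax5* in 39.5% (37.0 to 41.97) against 31.9% (27.4 to 36.6).

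*Fcrl1* was the gene whose level moved least. *Fcrl1* (ENSMUSG00000059994, chromosome 3, 87376387 to 87402934, plus strand) encodes an Fc receptor-like surface protein that promotes B cell activation. Its level was 1.46 UMIs per 10000 in WT against 1.40 in *Postn*-DTR, for a log2 ratio of -0.07 with an interval that spans 0 (-0.234 to 0.184). In cells thinned to 1000 UMIs, which retain few *Fcrl1* UMIs, the log2 ratio of the levels was -0.49, and the share was 14.9% in WT (13.2 to 16.7) against 11.3% in *Postn*-DTR (8.47 to 14.6). At 2000 UMIs the share was 25.2% in WT (23.0 to 27.5) and 25.1% in *Postn*-DTR (21.01 to 29.6), so the lower value was seen at the smaller depth only.

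*Vpreb3* and *Zfp318* had higher values in *Postn*-DTR. *Vpreb3* (ENSMUSG00000000903, chromosome 10, 75943057 to 75949657, plus strand) encodes a relative of the surrogate light chain. Its level in B2 B-like cells was 3.89 UMIs per 10000 in WT, from 2653 UMIs, against 5.72 in *Postn*-DTR, from 872 UMIs, for a log2 ratio of 0.56 (0.536 to 0.759). The ratio lay just inside the 1.5-fold limit, and on summed UMIs it lay outside it (0.65). The share was 29.1% in WT (26.9 to 31.5) against 35.4% in *Postn*-DTR (30.9 to 40.0) at 1000 UMIs, where the intervals overlapped narrowly. At 2000 UMIs it was 44.0% (41.5 to 46.5) against 58.5% (53.5 to 63.2), without overlap. *Zfp318* (ENSMUSG00000015597, chromosome 17, 46383731 to 46420920, plus strand) encodes a nuclear protein needed for the expression of IgD. Its level was 1.52 in WT and 1.99 in *Postn*-DTR, for a log2 ratio of 0.38 (0.204 to 0.572). Under 14 alternative settings the log2 ratio of *Zfp318* ranged from 0.078 to 0.537, so its size depended on the setting. *Ighd*, the IgD heavy chain, had a level of 5.51 in WT and 6.25 in *Postn*-DTR in the same cells, for a log2 ratio of 0.18.

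**Figure D1:**
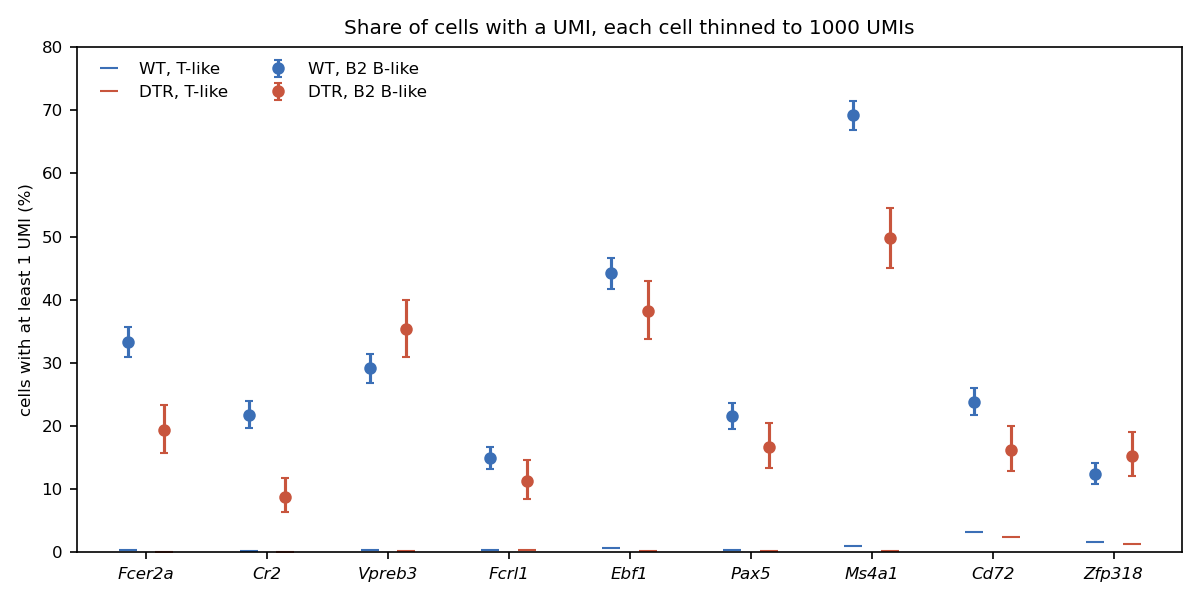
Share of cells with at least 1 UMI of each gene (vertical axis, percent) after each cell had been thinned to 1000 UMIs. Points are B2 B-like cells of WT (blue) and *Postn*-DTR (red, DTR) with exact 95% binomial intervals, and dashes are T-like cells. The intervals cover counting error among cells only, and their overlap is no test between groups. *Fcer2a*, *Cr2*, *Ms4a1* and *Cd72* sit lower in *Postn*-DTR with no overlap of intervals, and the T-like shares lie near 0 except for *Cd72* (3.25% in WT and 2.37% in *Postn*-DTR).

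The genes were next counted cell by cell. In thinned B2 B-like cells a mean of 2.70 of the 9 genes was detected per WT cell and 2.11 per *Postn*-DTR cell. At least 3 of the genes were detected in 54.4% of the WT cells (51.9 to 56.9) and in 37.6% of the *Postn*-DTR cells (33.1 to 42.3). At least 1 was detected in 96.0% (94.9 to 96.9) and 91.2% (88.2 to 93.7). Most of the remaining cells thus still carried a UMI of the set, with fewer of its genes per cell. Thinned B1 B-like cells had at least 1 of the genes in 85.6% of the WT and 78.6% of the *Postn*-DTR cells. Carrying at least 1 was therefore not particular to B2 B-like cells. At least 3 were detected in 11.95% and 7.77% of the B1 B-like cells. At their own depth, 97.0% of WT and 90.4% of *Postn*-DTR B2 B-like cells had at least 3, but depth differed between the libraries. Among T-like cells the thinned share with at least 3 was 0.252% in WT and 0.198% in *Postn*-DTR.

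The B2 B-like cells fell into subclusters that the libraries filled unequally. Subcluster 1 held 65.2% of the WT B2 B-like cells (1028) and 30.1% of those of *Postn*-DTR (135), and subcluster 2 held 27.2% (429) and 67.5% (303). When clusters were named anew at the finer resolution of 1.6, each against the other non-cycling B-like cells, only subcluster 1 was named B2 B-like. Subcluster 2, with most of the *Postn*-DTR cells of the class, did not get that name, and its identity was not tested. Over the cells of both libraries together, subcluster 1 was led by *Dmwd*, *Gsn* and *Ccr6*, and subcluster 2 by *Ighv11-2*, *Apoe* and *Igkv14-126*. The mix of libraries is thus part of these leads. Within subcluster 1, *Fcer2a* was 5.30 UMIs per 10000 in WT against 2.60 in *Postn*-DTR (log2 ratio -1.02), and *Cr2* was 2.92 and 1.52 (-0.93). Within subcluster 2, *Fcer2a* was 3.97 and 2.05 (-0.95), and *Cr2* was 1.89 and 1.07 (-0.81). Both genes were therefore past 1.5-fold in each subcluster on its own, where 10.7% and 7.62% of all genes were lower. *Vpreb3* was higher in subcluster 1 (4.09 and 7.45, log2 ratio 0.86), where 6.68% of all genes were higher, and within 1.5-fold in subcluster 2 (4.04 and 5.11, 0.34). *Ms4a1* and *Cd72* were past 1.5-fold in subcluster 2 (-0.67 and -0.79) and not in subcluster 1 (-0.46 and -0.28), and the difference between the subclusters was not tested.

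**Figure D2:**
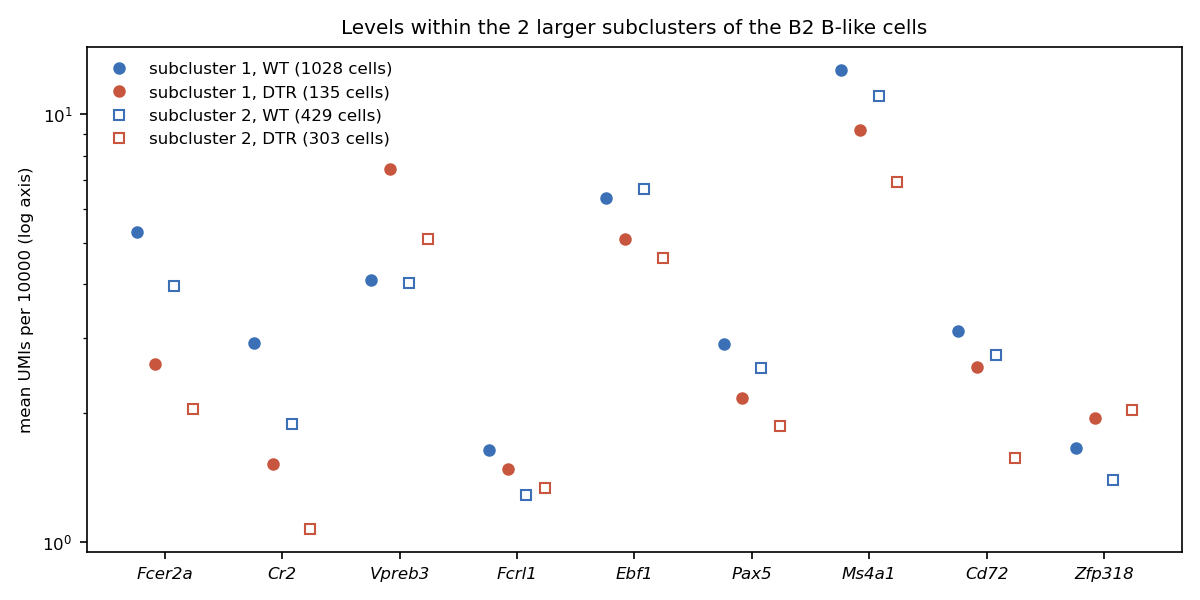
Mean UMIs per 10000 (vertical axis, log scale) of each gene in the 2 larger subclusters of the B2 B-like cells. Filled circles are subcluster 1 and open squares subcluster 2, blue is WT and red *Postn*-DTR. *Fcer2a* and *Cr2* sit lower in *Postn*-DTR in both subclusters, and *Vpreb3* sits higher.

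Antibody transcripts that lead subcluster 2 moved with the libraries. *Ighv11-2* and *Ighv1-11*, heavy chain variable segments by which the study marked B1 cells, had higher levels in *Postn*-DTR. *Ighv11-2* was at 1.10 UMIs per 10000 in WT B2 B-like cells against 6.69 in *Postn*-DTR, and at 0.585 and 1.72 in T-like cells. *Ighv1-11* was at 0.997 and 9.003 in B2 B-like cells, and at 0.958 and 7.36 in T-like cells. Both segments were thus higher in *Postn*-DTR in T-like cells as well. *Apoe*, an apolipoprotein, was at 1.11 and 4.50 in B2 B-like cells, at 1.90 and 6.70 in B1 B-like cells and at 0.165 and 0.247 in T-like cells. The 9 genes of the B1 marker list went the other way, with a summed level of 3.46 in WT B2 B-like cells against 2.09 in *Postn*-DTR, where 8 of the 9 had the lower value, and 29.0 and 29.4 in B1 B-like cells. *S100a6* alone made up 2.495 and 1.605 of the sums in B2 B-like cells. The list summed to 16.23 and 15.01 in T-like cells, so its genes are not particular to B1 cells. The lower sum therefore does not show less B1 content, and the part of T cell transcripts in it was not tested. *Jchain*, the joining chain of secreted antibodies, was found at 1.01 in WT B2 B-like cells against 2.89 in *Postn*-DTR, and at 0.921 and 2.16 in T-like cells. The 9 plasma cell markers together were at 7.86 and 9.28 in B2 B-like cells, where 6 of the 9 had the higher value in *Postn*-DTR. Their sum was higher in *Postn*-DTR in B1 B-like cells too (11.9 and 14.8, with 7 of the 9 higher). The same held in T-like cells (2.46 and 4.30, with 8 of the 9 higher), so the rise was not particular to B2 B-like cells. None of the B1 or plasma cell markers was at 0 UMIs in the B2 B-like cells of either library. The part of these transcripts in the ratios of the 9 genes was not tested. *Cd3e*, a T cell receptor subunit, was at 0.166 in WT B2 B-like cells and at 0 UMIs in *Postn*-DTR, and 46 WT cells and 1 *Postn*-DTR cell of the class were called doublets. Without called doublets the log2 ratios were -1.12 for *Fcer2a*, -1.10 for *Cr2*, -0.68 for *Ms4a1* and -0.67 for *Cd72*, so the 4 genes were as low without them. With the level of T-like cells of the same library subtracted, an alternative chosen after the data were seen, they were -1.08, -1.06, -0.66 and -0.66.

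B1 B-like cells were examined for the same genes. Against B1 B-like cells of the same library, 8 of 9 were past 1.5-fold higher in B2 B-like cells in WT, where 8.76% of all genes were and the median log2 ratio of all genes was 0.13. *Ms4a1* was the exception, with 12.1 UMIs per 10000 in B2 B-like and 13.8 in B1 B-like cells of WT (log2 ratio of B2 over B1 -0.19) and 7.64 and 10.7 in *Postn*-DTR (-0.48), and thus did not mark B2 cells in these data. In *Postn*-DTR 7 of 9 were past 1.5-fold, where 8.35% of all genes were, and *Pax5* (0.44) joined *Ms4a1* within it. The log2 ratio of B2 over B1 was 2.49 in WT and 3.60 in *Postn*-DTR for *Fcer2a*, and 2.07 and 2.79 for *Cr2*. The genes that were lower in *Postn*-DTR B2 B-like cells thus still stood above B1 B-like cells, apart from *Ms4a1*.

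Between libraries, 3 of the 9 genes were lower in *Postn*-DTR B1 B-like cells and 1 was higher, where 4.68% of 7948 genes were lower and 5.52% higher. *Fcer2a* was 0.821 UMIs per 10000 in WT, from 722 UMIs, against 0.162 in *Postn*-DTR, from 51 UMIs, for a log2 ratio of -2.21 (-2.78 to -1.93). *Cr2* was 0.589 and 0.155, for a log2 ratio of -1.80 (-2.28 to -1.42). *Ighd*, a B2 marker, was 1.27 and 1.14 in the same cells, and the part of B2 cells within the B1 B-like class in these ratios was not tested. In the largest fine cluster of B1 B-like cells (765 and 355 cells), an alternative chosen after the data were seen, the log2 ratios were -2.47 for *Fcer2a* and -1.24 for *Cr2*. *Vpreb3* was 0.485 and 0.851, for a log2 ratio of 0.79 on mean levels and 1.03 on summed UMIs (0.803 to 1.25), so that its value was higher in *Postn*-DTR in both B-like classes. *Cd72* was 0.597 and 0.383 (-0.61), but was within 1.5-fold on summed UMIs (-0.52, -0.787 to -0.251) and in the largest fine cluster (-0.58). *Ms4a1*, *Ebf1* and *Pax5* were within 1.5-fold (-0.37, -0.30 and -0.31), as were *Fcrl1* (0.00068) and *Zfp318* (0.30).

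**Figure D3:**
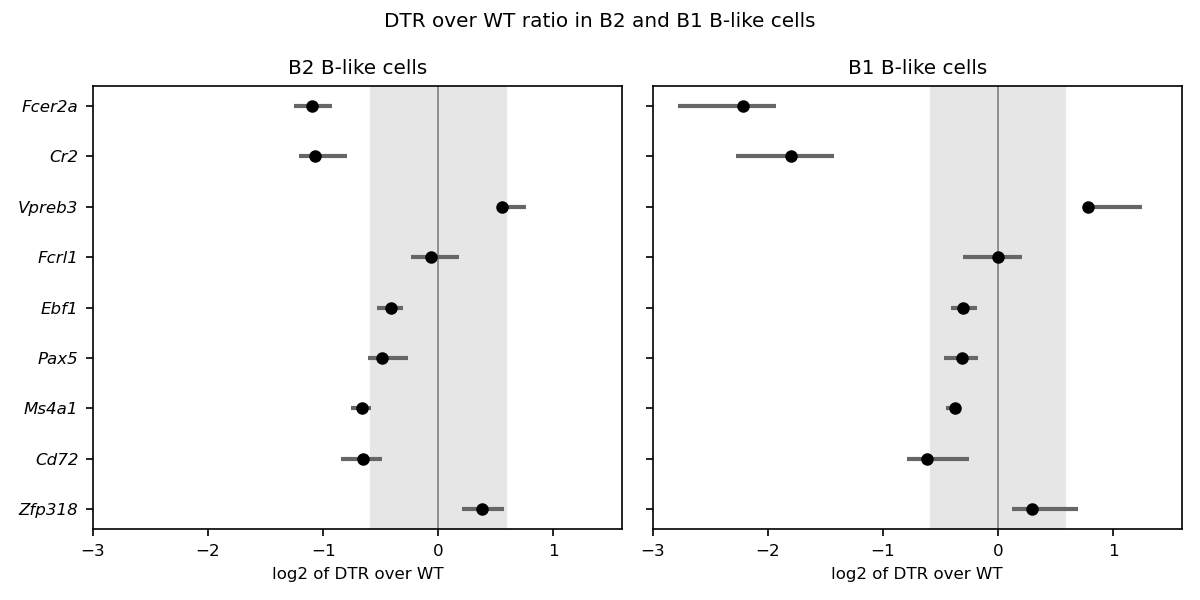
Log2 ratio of the level in *Postn*-DTR over WT for each gene (horizontal axis) in B2 B-like (left) and B1 B-like cells (right). Points are ratios of mean levels, lines the 95% counting intervals of summed UMIs, and the grey band marks 1.5-fold. *Fcer2a* and *Cr2* lie left of the band in both classes, and *Vpreb3* lies inside its right edge in B2 B-like cells and right of it in B1 B-like cells.

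Cycling B-like cells gave few *Postn*-DTR UMIs, with only 18 cells, and the ratios there are values with wide intervals. *Fcer2a* was 0.615 UMIs per 10000 in WT against 0.239 in *Postn*-DTR (5 UMIs), and *Cd72* was 1.91 and 0.803 (27 UMIs). These 2 genes were lower, where 12.7% of 4133 genes were, 6 were within 1.5-fold, where 82.0% were, and *Zfp318* had under 100 UMIs. *Ms4a1* was 9.53 and 8.72.

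Plasma-like cells carried little of any of the 9 genes. The highest level was that of *Ms4a1*, 0.762 UMIs per 10000 in WT against 0.394 in *Postn*-DTR, and the others were between 0.0232 and 0.156 in WT. All 9 genes were past 1.5-fold lower in plasma-like than in B2 B-like cells in both libraries, but 73.9% of all genes in WT and 66.5% in *Postn*-DTR were too. Of the 6 genes with at least 100 UMIs, *Ms4a1*, *Pax5*, *Fcrl1* and *Zfp318* were lower in *Postn*-DTR (log2 ratios -0.92, -1.37, -0.61 and -0.64), where 8.56% of all genes were. T-like cells of WT and *Postn*-DTR held *Ms4a1* at 0.145 and 0.0567. The other genes called lower were near the added 0.02 and near or under the T-like level. In WT, *Pax5* was at 0.0572 in plasma-like and 0.0318 in T-like cells, and *Fcrl1* at 0.0458 and 0.0482. *Zfp318* was at 0.0455 in WT plasma-like and 0.154 in WT T-like cells, and at 0.0219 and 0.142 in *Postn*-DTR. The part of free RNA in the plasma-like values was not tested.

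**Figure D4:**
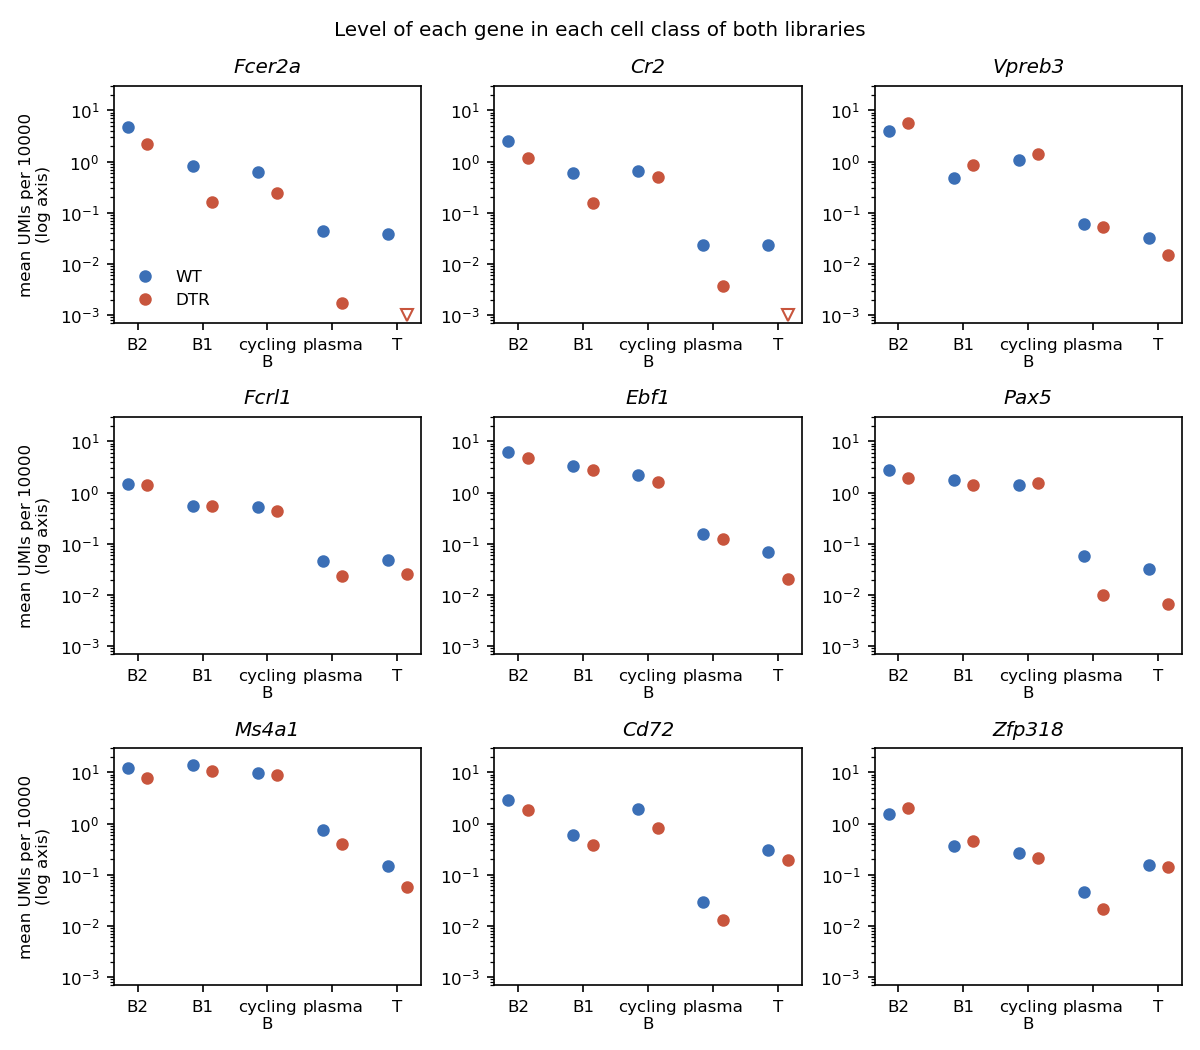
Mean UMIs per 10000 (vertical axis, log scale) of each gene in B2, B1, cycling B, plasma and T-like cells, with WT in blue and *Postn*-DTR (DTR) in red. Open triangles at the lower edge mark a level of 0. *Ms4a1* sits at a like level in the B2, B1 and cycling B classes, whereas *Fcer2a*, *Cr2* and *Vpreb3* are highest in the B2 class.

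Outside the B lineage, *Cd72* was found in NK-like cells at 1.05 UMIs per 10000 in WT against 1.25 in *Postn*-DTR, and *Ebf1* in stromal cells at 0.868 and 0.409, from 42 and 19 cells. *Ebf1* is also a regulator of adipose and stromal cells. The other genes had B2 B-like levels at least 4.92 times those of any class outside the B lineage in WT.

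Over the means of 10 classes in both libraries, which share their cells' depth and free RNA, the gene whose profile was most like the mean of the 9 genes was *Ffar1* (Pearson r 0.976), followed by *Srpk3* (0.974), *Ighd* (0.969), *Gm50386* and *Ell3*, by 20 values each. *Fcer2a* and *Cr2* were most like each other (0.966). Among the other genes, the most similar were *Ighd* for *Vpreb3* (0.954), *Cd22* for *Fcrl1* (0.956), *Srpk3* for *Pax5* (0.980), *Bach2* for *Cd72* (0.936) and *Tec* for *Zfp318* (0.934). These are descriptions over few points.

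Other B cell genes in the same B2 B-like cells were read from 5 lists, beside the 6.15% of all genes that were lower and the 89.1% within 1.5-fold. Of 14 genes of the B cell receptor and its co-receptors, 0 were lower, 14 were within 1.5-fold and 0 were higher, with a median log2 ratio of 0.03. Of 14 B lineage transcription factors, 2 were lower, *Mef2c* (-0.60) and *Cbfa2t3* (-0.63, from 73 *Postn*-DTR UMIs), 12 were within and the median was -0.27. Of 12 follicular homing and receptor genes, *Cd55*, a complement regulator, was lower (2.75 and 1.55, -0.82) and 11 were within, among them *Cxcr5* (-0.04) and *Ccr7* (0.20), the chemokine receptors of follicles and T cell zones. *Cxcr5*, *Ccr7* and *Ighd* were named after their values had been seen. Of 12 transitional and marginal zone genes, 6 had at least 100 UMIs, and *Cd24a* (-0.77), *Cd9* (-0.76) and *Notch2* (-0.64) were lower. On summed UMIs *Cd24a* was within 1.5-fold (-0.53, -0.674 to -0.398), and *Cd9* rested on 20 *Postn*-DTR UMIs (-1.50 to -0.0809). Of 7 plasma cell regulators, 4 had at least 100 UMIs, and *Irf4* was lower (-0.71) and *Jchain* was 2.82-fold higher. The shares of receptor and homing genes within 1.5-fold were near that of all genes.

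The DNA before the start of *Vpreb3*, *Fcrl1* and *Cd72* is shown because each holds a B cell motif, and in B2 B-like cells *Cd72* was lower whereas *Vpreb3* and *Fcrl1* were within 1.5-fold. Sequences are 120 bases that end at the base before the RefSeq start (GRCm38.p6), 5′ to 3′ on the gene's strand, with the motif in capitals. The RefSeq start of *Vpreb3* lies inside the GENCODE span of the gene given above, so its sequence is within that span.
Vpreb3 promoter, chr10:75948180-75948299, plus strand: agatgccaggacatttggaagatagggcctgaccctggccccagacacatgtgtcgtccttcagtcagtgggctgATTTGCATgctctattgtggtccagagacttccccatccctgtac
Fcrl1 promoter, chr3:87376267-87376386, plus strand: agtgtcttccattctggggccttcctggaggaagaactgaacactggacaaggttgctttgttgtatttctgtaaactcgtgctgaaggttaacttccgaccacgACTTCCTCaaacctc
Cd72 promoter, chr4:43454627-43454746, minus strand: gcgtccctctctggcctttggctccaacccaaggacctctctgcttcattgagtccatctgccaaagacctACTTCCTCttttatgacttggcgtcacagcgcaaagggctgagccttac
The capitals mark the octamer of OCT factors in *Vpreb3* (ATGCAAAT, here read on the other strand) and a PU.1 site in *Fcrl1* and *Cd72* (GAGGAAGT, also on the other strand). The octamer was present, on either strand, in the 250 bases before the start of 1.601% of 32851 RefSeq promoters and the PU.1 letters in 2.44%. An E-box (CAGGTG) was in 17.2% of promoters and before *Cr2* and *Fcer2a*, a STAT site in 5.85% and before *Fcer2a*, and an EBF site in 0.779% and before 0 of the 8 genes with an entry. These matches are letters in a window and say nothing of binding. The promoter of *Ms4a1* was not analysed here. In the GENCODE annotation *Vpreb3*, *Ebf1*, *Pax5*, *Ms4a1*, *Cd72* and *Zfp318* overlap another gene, and whether counting used strand is not given in the sources used here.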

How the data were processed

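Per the labels, single-cell libraries were made from omentum with a 5′ kit and processed with Cell Ranger 6.0.0 on mm10, whereas the study's methods name a 3′ kit and another version. The authors deposited expression on a natural log scale, ln(1 + UMIs scaled to 10000 per cell). UMIs were recovered from the steps within each cell and were whole within 0.1 for 99.96% of the WT and 99.89% of the *Postn*-DTR values. Cells with 200 to 7500 genes and at most 25% mitochondrial UMIs were kept. The libraries were clustered together in Seurat 5.3.0 (SCTransform 0.4.2, 30 components, resolution 0.8) after the 9 genes, the other lists and receptor segments had been left out of the features. Doublets were called with Scrublet (scanpy 1.11.5), with a score limit set by hand because the automatic one marked almost no WT cells. Of the barcodes, 65 sequences occurred in both libraries. The comparison used levels of the 9 genes, and the genes named beside them are the list genes past the fold with the largest and smallest ratio, and those with the most similar profile. The members and lists were chosen with earlier results of these data known. The ratios, calls and intervals were tested on simulated data. The simulated counts were drawn at random from a shared profile, with known changes in some genes. Apart from depth they held no variation between cells, mice or libraries, so the intervals were not tested against such variation. Some results are not reported here.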

Additional observations from a re-analysis of the deposited data

Results flagged for a closer look

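Opposite signs between classes were seen for 4 values on mean levels, and the differences were not tested. The log2 ratio of *Postn*-DTR over WT was 0.00068 for *Fcrl1* in B1 B-like cells against -0.07 in B2 B-like cells, 0.13 for *Pax5* in cycling B-like cells against -0.49, -0.12 for *Vpreb3* in plasma-like cells against 0.56, and -0.64 for *Zfp318* in plasma-like cells against 0.38. On summed UMIs *Fcrl1* in B1 B-like cells (-0.05, -0.305 to 0.207) and *Pax5* in cycling B-like cells (-0.29, -0.740 to 0.135) had the same sign as in B2 B-like cells. *Vpreb3* in plasma-like cells was at -0.02 (-0.344 to 0.320), with an interval that spans 0, and *Zfp318* at -1.34 (-1.78 to -0.893). The plasma-like levels of *Zfp318* lay under those of T-like cells in both libraries. A cluster left unnamed at a low depth held 109 WT and 42 *Postn*-DTR cells, and the values of its *Postn*-DTR cells are not reported here. All unnamed WT cells together had a median of 904 UMIs and 11.8% mitochondrial UMIs, against 2.27% in WT B2 B-like cells. The 109 WT cells held UMIs of all 9 genes above the T-like level, from 4 to 53 UMIs each. *Fcer2a* was at 2.36 UMIs per 10000, *Cr2* at 1.18, *Vpreb3* at 0.184, *Fcrl1* at 0.322, *Ebf1* at 4.84, *Pax5* at 0.943, *Ms4a1* at 1.75, *Cd72* at 1.48 and *Zfp318* at 0.977.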

How the results depend on the processing

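No paired analysis was possible because each group has 1 library and the labels carry no replicate numbers. Of 9 genes, *Fcer2a* (-1.34 to -0.87) and *Cr2* (-1.27 to -0.81) were lower in B2 B-like cells under all 14 alternatives. Of these, resolution 1.6 and subcluster 1 are the same cells, because only that subcluster was named B2 B-like at resolution 1.6. The count of lower genes was 2 instead of 4 at resolution 1.6, in subcluster 1, with subclusters weighted as in WT and at a fold of 2. The count of higher genes was 1 instead of 0 on summed UMIs, with totals that leave out antigen receptor, mitochondrial and ribosomal genes, at resolution 1.6, in subcluster 1 and with weighted subclusters, and the gene was *Vpreb3*. In cycling B-like cells summed UMIs gave 4 lower and 1 higher. Over all genes the numbers lower and higher were 244 and 169 with a pseudocount of 0.1, 119 and 68 at a fold of 2, 825 and 641 with at least 30 UMIs and 1202 and 1067 with at least 1 UMI, against 458 and 356, and 178 were higher in subcluster 2. The difference in the share of B2 B-like cells with at least 3 genes was -16.8 percentage points at 1000 UMIs, -8.04 at 2000 and -6.60 at each cell's own depth. The cause of these shifts was not tested. Within 1.5 times the reported count, lower genes in B2 B-like cells numbered 3 with a gate on UMIs and in B1 B-like cells 2 on summed UMIs and in the largest fine cluster, where *Cd72* was within, and genes higher in B2 than in B1 B-like cells numbered 7 in WT with reduced totals and 8 in *Postn*-DTR at resolution 1.6. Low UMI numbers limit cycling B-like cells most, and with 1 library per group no setting shows how mice vary.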
